A study of Mus musculus with 11 samples.

Results

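*Asph*, which was higher in mouse Leydig tumor cells after transfection with either of 2 siRNAs against *Mamld1*, is described here together with 9 other genes that fill, empty, or refill the calcium store of the endoplasmic reticulum. The members were chosen by name with earlier results of these data known, so their calls do not rest on an independent choice. *Asph* was chosen by its rise with both siRNAs on these arrays, so its levels against control are a description with no test. The other members are *Itpr1*, *Itpr2*, *Itpr3*, *Atp2a2*, *Atp2a3*, *Atp2b1*, *Stim1*, *Stim2*, and *Orai1*. These 10 genes had 19 probes among 41174 probes on the array, whose RefSeq accessions named 17016 genes. All 19 member probes passed the filter on dim probes, which asked for a signal well above background throughout at least 1 group.

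MLTC-1 is an established line derived from a Leydig tumor of a mouse, and no genetic change of the cells was stated. They were transfected for 48 hours at 20 nM with non-targeting RNA (control, 4 arrays), siRNA1 (4 arrays), or siRNA2 (3 arrays), the last 2 being short duplexes against *Mamld1* of different sequence. All groups thus shared the transfection. By the methods of the study, hCG was then added to the medium, and the array RNA came from cells harvested when the steroids were measured after it. All groups thus also shared hCG by the methods, while the sample labels name none. The methods describe hybridization in triplicate, while 4, 4, and 3 arrays carry these labels, so what each array stands for is not settled. Nothing states that the arrays of a group came from separate cultures, so p-values measure the spread between these arrays, which may be technical.

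The endoplasmic reticulum holds most of the releasable calcium of a cell. *Asph* encodes aspartate beta-hydroxylase, an enzyme of the reticulum membrane that hydroxylates epidermal growth factor-like domains, and through other splice forms and a second promoter it also encodes junctin and junctate, which lack the enzyme domain and bind calcium handling proteins. Calcium leaves the store through IP3 receptors (*Itpr1* to *Itpr3*), returns through SERCA pumps (*Atp2a2*, *Atp2a3*), is expelled from the cell by the plasma membrane pump *Atp2b1*, and enters again when the store sensors *Stim1* and *Stim2* open the *Orai1* channel. In Leydig cells, luteinizing hormone signaling raises cytosolic calcium as well as cyclic AMP.

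Promoter sequences are shown for the 2 IP3 receptor genes, *Itpr2* and *Itpr3*, that differed between the siRNAs in opposite directions, as reference for the values that follow. They are RefSeq sequences of GRCm38.p6, from 250 bases before the start site to 50 after it, written 5′ to 3′ in the direction of the gene. Capitals mark matches on either strand to a GC box (GGGCGG) or an E-box (CACGTG).
*Itpr2*, chr6:146502174-146502473, minus strand: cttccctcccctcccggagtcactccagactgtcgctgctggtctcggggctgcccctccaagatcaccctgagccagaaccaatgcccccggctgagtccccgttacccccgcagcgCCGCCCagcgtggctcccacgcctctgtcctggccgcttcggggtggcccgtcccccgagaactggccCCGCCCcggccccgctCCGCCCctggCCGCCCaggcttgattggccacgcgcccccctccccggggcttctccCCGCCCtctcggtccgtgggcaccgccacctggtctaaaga
*Itpr3*, chr17:27057054-27057353, plus strand: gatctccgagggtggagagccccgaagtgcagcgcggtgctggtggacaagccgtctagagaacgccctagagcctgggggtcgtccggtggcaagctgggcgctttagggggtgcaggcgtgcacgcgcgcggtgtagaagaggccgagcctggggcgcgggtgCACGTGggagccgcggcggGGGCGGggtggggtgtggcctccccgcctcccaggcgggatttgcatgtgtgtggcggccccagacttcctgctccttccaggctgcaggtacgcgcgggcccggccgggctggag
The *Itpr2* window held 5 GC boxes and no E-box, at a GC content of 73.3%. The *Itpr3* window held 1 GC box and 1 E-box, which did not overlap, at a GC content of 72.3%. Of 32851 promoter windows of this length, 35.7% held a GC box and 7.15% held an E-box. Neither window matched the other motifs searched on both strands, which were the RBPJ core TGGGAA (25.6% of all windows), the NR5A1 core AAGGTCA (4.72%), the cyclic AMP response element (1.79%), and the endoplasmic reticulum stress element (0.119%). A match is a description of the letters and not of binding.

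Levels are given per array as percent of the control geometric mean of the same probe, after each array was scaled to its 75th percentile. This percentile was 469.7 to 773.8, between 58.6% and 62.6% of spots per array were well above background, and 0 were saturated. The arrays lay on 3 slides, each of which held all 3 groups. *Mamld1* itself stood at 85.2% to 119% on the control arrays, 44.1% to 77.0% with siRNA1, and 45.3% to 68.6% with siRNA2, so both siRNA groups lay below control. Its 1 probe was dim, with signals of 14.3 to 38.1. The siRNA2 difference of -0.77 (adjusted p = 0.0309, limma) lost its call in 8 of 25 alternative settings, as without siRNA2 replicate 1 (-0.58, adjusted p = 0.117). Of 7 Leydig cell markers, 7 were well above background on every control array, against 2 of 5 Sertoli cell, 0 of 4 macrophage, 3 of 8 striated muscle, 2 of 5 fibroblast, and 2 of 3 germ cell markers, with *Sox9*, *Adgre1*, *Ptprc*, *Tnnt2*, *Lum*, *Dcn*, and *Col1a1* not above it on any array. The summed level of the Sertoli cell markers, in units of the 75th percentile, was 2.73 to 3.05 on control, 2.46 to 3.05 on siRNA1, and 4.23 to 5.09 on siRNA2 arrays, and that of the fibroblast markers was 0.126 to 0.178, 0.124 to 0.167, and 0.181 to 0.276. The sum of the Leydig cell markers was 456 to 599 on control, 418 to 485 on siRNA1, and 512 to 620 on siRNA2 arrays. The siRNA groups thus did not overlap for it, while each overlapped control. For the macrophage, striated muscle, and germ cell markers the groups overlapped. The part of these shifts in any result was not tested.

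*Asph* was measured by 3 probes, all well above background on all 11 arrays. The A_52_P432289 probe, designed on NM_023066, stood at 115%, 89.1%, 99.6%, and 97.7% of the control mean on the 4 control arrays. It reached 423%, 331%, 421%, and 298% on the siRNA1 arrays. On the siRNA2 arrays it was at 562%, 445%, and 413%. Every siRNA array thus lay above every control array, with differences of 1.86 on the log2 scale for siRNA1 (SE, 0.14; 3.64-fold) and 2.23 for siRNA2 (SE, 0.16; 4.69-fold). Within each slide the difference was 1.61 to 2.06 for siRNA1 and 2.08 to 2.47 for siRNA2. A level per unit of labeled RNA cannot separate more RNA per cell from more cells that express the gene.

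The other *Asph* probes showed smaller differences. The transcript given for a probe is its label on the array. Probe sequences were not available, so the *Asph* forms that each probe detects could not be worked out. A_51_P381670, designed on the same transcript, was at 108%, 107%, 95.8%, and 90.2% on control arrays, 215%, 200.0%, 218%, and 148% on siRNA1 arrays, and 169%, 167%, and 115% on siRNA2 arrays, or 0.95 (SE, 0.16) and 0.56 (SE, 0.17) above control on the log2 scale. Neither siRNA group overlapped control. A_52_P625171, designed on NM_133723, was at 105%, 126%, 86.4%, and 87.6% on control arrays, 198%, 175%, 189%, and 153% on siRNA1 arrays, and 181%, 192%, and 116% on siRNA2 arrays, or 0.83 (SE, 0.18) and 0.67 (SE, 0.19) above control. Here siRNA2 replicate 3 lay inside the control range, while the siRNA1 arrays did not.

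**Figure D1:**
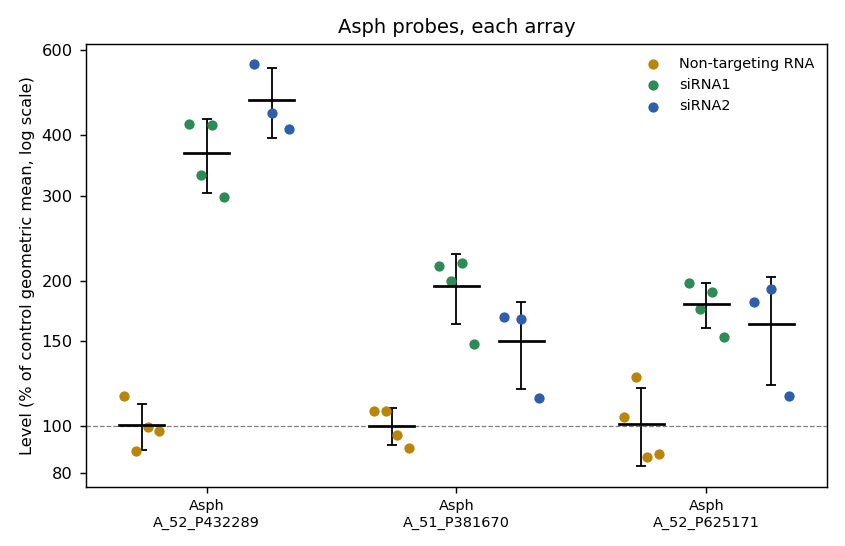
Level of the 3 *Asph* probes on each array, in percent of the control geometric mean (log axis), for non-targeting RNA (4 arrays), siRNA1 (4 arrays), and siRNA2 (3 arrays), with black lines for the mean and SD. A_52_P432289 lies at 298% to 562% with the siRNAs, and the other probes lie at 115% to 218%.

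The order of the siRNAs depended on the *Asph* probe. In limma's test of siRNA1 against siRNA2, which the choice of *Asph* did not use, A_52_P432289 was lower with siRNA1 by a log2 difference of -0.37 (SE, 0.16; adjusted p = 0.117), and the arrays overlapped. A_51_P381670 had a log2 difference of 0.39 in the other direction (SE, 0.17; adjusted p = 0.128), which passed the threshold of 0.05 once slide entered the fit as a block (0.36, adjusted p = 0.0170) and without siRNA1 replicate 4 (0.51, adjusted p = 0.0347). A_52_P625171 had a log2 difference of 0.16 (SE, 0.19; adjusted p = 0.584), and of -0.065 without siRNA2 replicate 3. With all 11 arrays and no block, no *Asph* probe separated the siRNAs at the adjusted p of 0.05.

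Within single arrays, the change of the A_52_P432289 probe was set against that of the others, a comparison chosen after the values were seen. With the control mean set to 0, its log2 signal minus that of A_51_P381670 averaged 0.92 ± 0.13 (SD, n = 4) on the siRNA1 arrays and 1.67 ± 0.23 (SD, n = 3) on those of siRNA2, against an SD of 0.18 on the control arrays. The siRNA groups did not overlap. Against A_52_P625171 the values were 1.03 ± 0.11 (SD, n = 4) and 1.56 ± 0.32 (SD, n = 3), again with no overlap. Both contrasts hold the same A_52_P432289 values, the probe of the largest rise, and are given with no test.

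**Figure D2:**
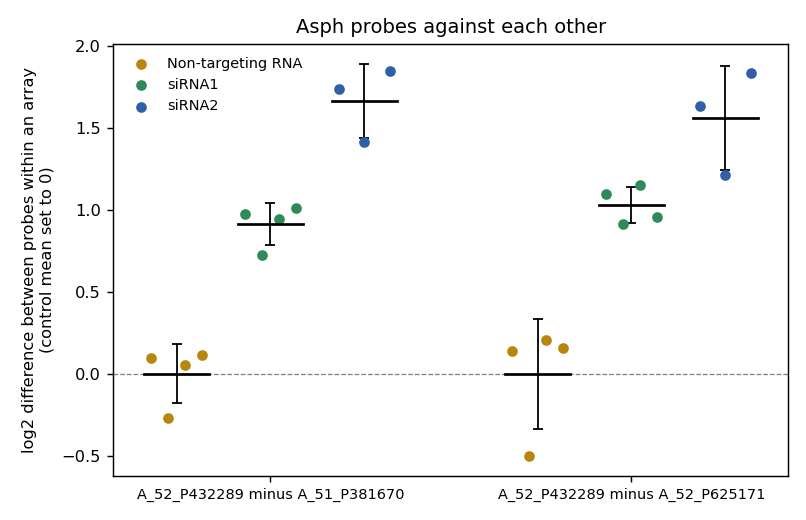
Log2 signal of *Asph* probe A_52_P432289 minus that of each other *Asph* probe on the same array, with the control mean set to 0; points are arrays of the 3 groups and black lines are the mean and SD. The siRNA1 means are 0.92 and 1.03, and the siRNA2 means are 1.67 and 1.56.

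Among the other 9 members, 3 genes rose with siRNA1 and 1 rose with siRNA2. With siRNA1, 8 of 16 probes, of *Itpr1*, *Itpr2*, and *Atp2a2*, passed limma's adjusted p of 0.05 as higher and 0 as lower, where 8 had an unadjusted p under 0.05. Of all 24250 tested probes, 27.0% were called with siRNA1, 11.8% as higher and 15.2% as lower. The methods' t-test, adjusted, called 6 of the 16 probes, beside 23.2% of all tested probes. With siRNA2, limma called 1 of 16 probes, of *Itpr1*, as higher and 0 as lower, and 3 had an unadjusted p under 0.05. Of all tested probes it called 18.4%, with 7.70% as higher and 10.7% as lower. The methods' t-test called 5 of the 16 without adjustment, beside 27.6% of all tested probes, and 0 with it, beside 11.8%. Between the siRNAs, 5 probes were higher and 1 was lower with siRNA1, beside 23.5% of all tested probes, 11.7% as higher and 11.8% as lower. This count of 6 was 2 without siRNA2 replicate 1 or 2, beside 22.2% and 17.5% of all tested probes. It was 3 without siRNA1 replicate 3, beside 18.3%. The median log2 difference of the 16 probes was 0.30 with siRNA1 and 0.16 with siRNA2, beside -0.048 and -0.0082 for all tested probes. With a fold change of at least 2 added, 1 probe was called with siRNA1, beside 2.99% of all, and 0 with siRNA2, beside 2.25%. The siRNA comparisons share the same 4 control arrays. No share of all tested probes is given for limma's unadjusted p, here or below.

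The 3 IP3 receptor genes each behaved differently. *Itpr1*, the receptor best known from Purkinje cells, was higher with both siRNAs. Its A_51_P269663 probe was at 108%, 104%, 88.3%, and 101% on the control arrays, 131%, 121%, 130.4%, and 139% with siRNA1, and 137%, 125%, and 126% with siRNA2, so that both siRNA groups lay above control. The log2 difference was 0.38 for siRNA1 (SE, 0.085; adjusted p = 0.00679, limma) and 0.37 for siRNA2 (SE, 0.092; adjusted p = 0.0156). The siRNA2 call was lost without siRNA2 replicate 1 (0.33, adjusted p = 0.0594) and with scaling to the median of each array (0.38, adjusted p = 0.0869). Within slides the differences were 0.30 to 0.51 and 0.33 to 0.51. The other *Itpr1* probe, A_52_P118756, rose by 0.46 with siRNA1 (adjusted p = 0.0109) and had a difference of 0.32 with siRNA2 (adjusted p = 0.0968), where the 3 siRNA2 arrays, at 113% to 146%, still lay above the control arrays at 89.4% to 108%. Groups that did not overlap were seen for 8 of the 16 probes with siRNA1 and 5 with siRNA2, all higher, beside 29.1% and 28.1% of all tested probes in either direction and 12.7% and 12.4% as higher. Between the siRNAs they were seen for 5 of the 16, beside 31.3%. Neither *Itpr1* probe passed the adjusted p of 0.05 between the siRNAs, with log2 differences of 0.0069 (SE, 0.092; adjusted p = 0.968) and 0.14 (SE, 0.12; adjusted p = 0.447).

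*Itpr2*, the IP3 receptor of highest affinity for its ligand, rose with siRNA1 on all 4 of its probes and on none with siRNA2. A_51_P500051 was at 80.0%, 111%, 108%, and 105% on control arrays, 116%, 151%, 146%, and 175% with siRNA1, and 90.2%, 102%, and 107% with siRNA2. The siRNA1 arrays thus lay above all others. Its log2 difference from control was 0.54 with siRNA1 (SE, 0.14; adjusted p = 0.0154) and -0.011 with siRNA2 (SE, 0.15; adjusted p = 0.976). A_51_P500056 gave 0.51 (adjusted p = 0.0129) and -0.024 (adjusted p = 0.943), with 85.4% to 116% on control, 119.8% to 165% on siRNA1, and 91.9% to 109% on siRNA2 arrays. The dimmer probes A_51_P480408 and A_52_P443988, with signals under 50 on every array, gave 0.85 (adjusted p = 0.00549) and 1.06 (adjusted p = 0.00415) with siRNA1, and 0.18 (adjusted p = 0.624) and 0.30 (adjusted p = 0.445) with siRNA2. A_52_P443988 was well above background on 10 of 11 arrays.

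The difference of *Itpr2* between the siRNAs passed limma's adjusted p of 0.05 on each probe, at log2 values of 0.55 (adjusted p = 0.0224), 0.54 (adjusted p = 0.0167), 0.67 (adjusted p = 0.0297), and 0.76 (adjusted p = 0.0369) in the order above. The exact permutation p was 0.0571, 0.0571, 0.0857, and 0.0286 in the same order. The siRNA groups overlapped on A_51_P480408, with siRNA2 replicate 3 at 158% and siRNA1 replicate 1 at 147%. On every slide each probe was higher with siRNA1 than with siRNA2, by 0.32 to 0.86. Leaving out siRNA2 replicate 1 ended all 4 calls (0.48 and 0.49 for the brighter probes, adjusted p = 0.0741 and 0.0551, and 0.42 for A_51_P480408, adjusted p = 0.0939), as did leaving out siRNA2 replicate 2 (0.57 and 0.51, adjusted p = 0.0574 and 0.0596). The call of A_52_P443988 was lost without any 1 of the siRNA1 and siRNA2 arrays (0.71 to 0.80, adjusted p = 0.0530 to 0.0912), that of A_51_P480408 also without siRNA1 replicate 2, 3, or 4 (0.62 to 0.66, adjusted p = 0.0650 to 0.0663), and that of A_51_P500051 also without siRNA1 replicate 3 or 4 (0.55 and 0.46, adjusted p = 0.0507 and 0.0526). In the fit with a slide block all 4 passed, at adjusted p from 0.0014 to 0.0336. Under normexp background correction with capped local backgrounds, the dimmer probes lost both calls, with differences of 0.077 and 0.096 from control with siRNA1 (adjusted p = 0.555 and 0.461) and of 0.085 and 0.11 between the siRNAs (adjusted p = 0.565 and 0.467).

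*Itpr3*, the IP3 receptor common in secretory epithelia, differed between the siRNAs in the other direction. Its 1 probe, A_51_P104897, was at 86.1%, 97.1%, 112%, and 106% on control arrays, 66.9%, 80.5%, 87.6%, and 104% with siRNA1, and 117%, 131%, and 174% with siRNA2. The siRNA2 arrays lay above all others, while siRNA1 and control overlapped. The difference of siRNA1 from siRNA2 was -0.72 on the log2 scale (SE, 0.17; adjusted p = 0.0101, limma; exact permutation p = 0.0571), and -0.80, -0.64, and -0.74 within the 3 slides. Against control the differences were -0.26 with siRNA1 (adjusted p = 0.263) and 0.47 with siRNA2 (adjusted p = 0.0849). A slide block brought both past the threshold, at -0.32 (adjusted p = 0.0326) and 0.41 (adjusted p = 0.0193).

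**Figure D3:**
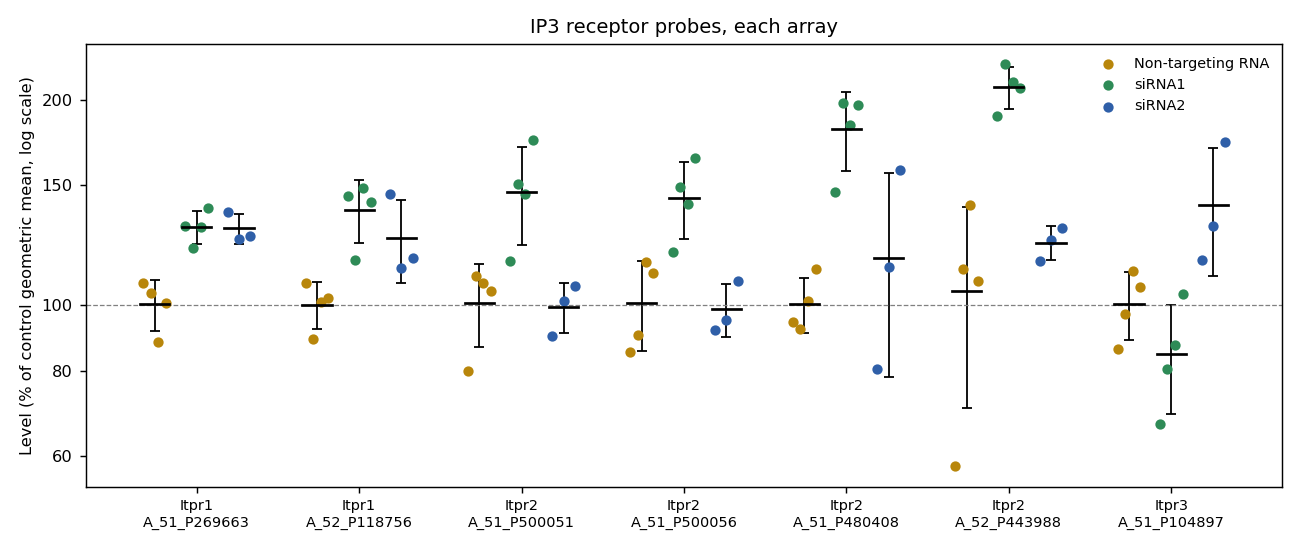
Level of the 7 IP3 receptor probes on each array, in percent of the control geometric mean (log axis), for non-targeting RNA, siRNA1, and siRNA2, with black lines for the mean and SD. *Itpr1* probes are above control with both siRNAs, the 4 *Itpr2* probes with siRNA1, and *Itpr3* is highest with siRNA2.

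Of the pumps, *Atp2a2*, which encodes the widely expressed SERCA2, rose with siRNA1. Its A_51_P451075 probe was at 103%, 104%, 96.9%, and 96.9% on control arrays, 150.0%, 133%, 160.3%, and 159% with siRNA1, and 121%, 105%, and 117% with siRNA2. The 3 groups did not overlap. The log2 difference was 0.59 with siRNA1 (SE, 0.085; adjusted p = 0.000471) and 0.19 with siRNA2 (SE, 0.091; adjusted p = 0.194). The siRNAs differed by 0.40 (SE, 0.091; adjusted p = 0.00864), and by 0.31 to 0.48 within slides. A_52_P168097 rose by 0.46 with siRNA1 (SE, 0.11; adjusted p = 0.00848), had a difference of 0.15 with siRNA2 (adjusted p = 0.440), and differed by 0.31 between the siRNAs (adjusted p = 0.0783), which passed without siRNA1 replicate 4 (0.39, adjusted p = 0.02405). The siRNA2 arrays lay above control on both probes, at 105% to 121% and 105% to 119%.

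The other pumps were not called. *Atp2a3*, SERCA3, was at 86.3% to 109.7% on control arrays, 82.4% to 96.4% with siRNA1, and 87.9% to 96.5% with siRNA2, with log2 differences of -0.18 (adjusted p = 0.192) and -0.10 (adjusted p = 0.559). The plasma membrane pump *Atp2b1* had differences of 0.074 and -0.037 on A_51_P230799 (SE, 0.15 and 0.16) and of -0.019 and -0.0055 on A_52_P348986 (SE, 0.14 and 0.15). The groups overlapped for all 3 of these probes.

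Store-operated entry members were not called either with all 11 arrays and no block. The *Stim1* probe was at 79.2% to 127% on control arrays, 96.0% to 138% with siRNA1, and 95.7% to 153% with siRNA2, with differences of 0.17 (SE, 0.19; adjusted p = 0.546) and 0.33 (SE, 0.21; adjusted p = 0.327). With a replicate block the siRNA2 difference passed (0.44, adjusted p = 0.0485). *Stim2* probe A_51_P516526 had differences of 0.21 (SE, 0.12; adjusted p = 0.222) and -0.12 (SE, 0.13; adjusted p = 0.602), and without siRNA1 replicate 2 siRNA1 passed against control (0.32, adjusted p = 0.0428) and against siRNA2 (0.44, adjusted p = 0.0160). Its dim probe A_51_P260008 spread from 62.5% to 154% among the control arrays alone. *Orai1*, which forms the pore, had differences of 0.10 (SE, 0.12; adjusted p = 0.558) and 0.013 (SE, 0.13; adjusted p = 0.966).

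**Figure D4:**
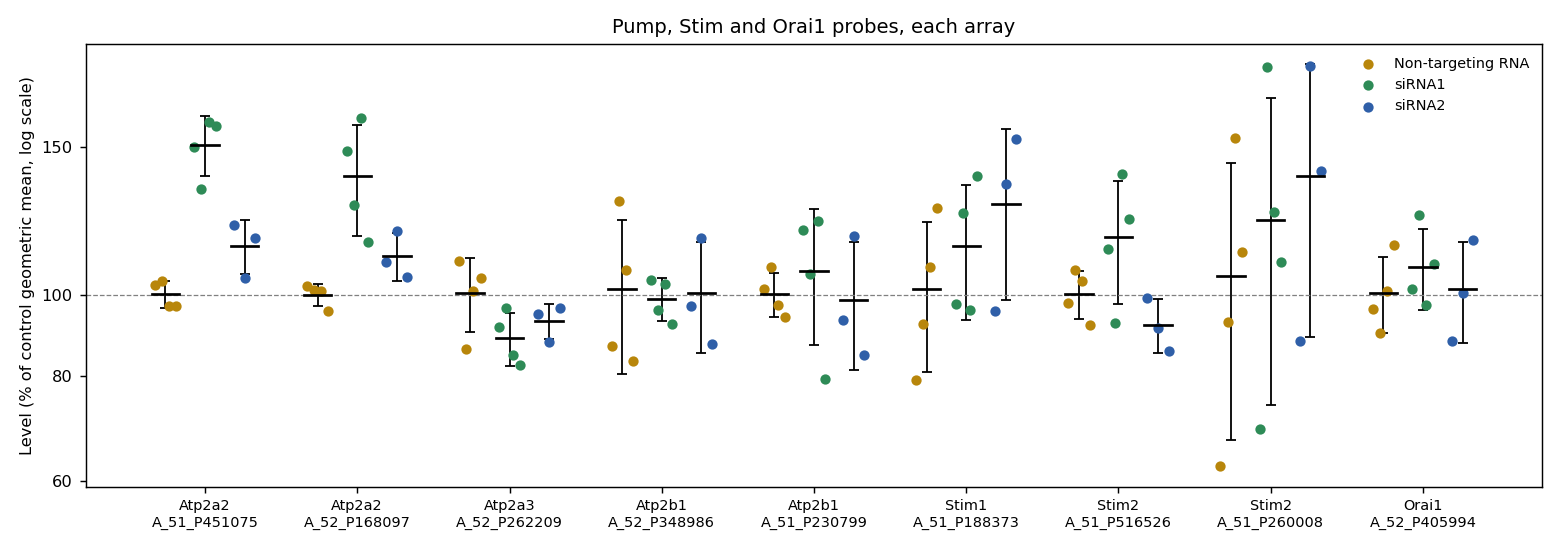
Level of the 9 probes of *Atp2a2*, *Atp2a3*, *Atp2b1*, *Stim1*, *Stim2*, and *Orai1* on each array, in percent of the control geometric mean (log axis), for non-targeting RNA, siRNA1, and siRNA2, with black lines for the mean and SD. The siRNA1 arrays of *Atp2a2* lie above control, and the groups of the other 5 genes overlap.

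The wider calcium store pathway was read from 9 lists with 98 genes on the array, of which 78 genes with 112 probes were tested. The siRNA1 arrays had 11 of these probes called as higher and 12 as lower. For siRNA2, the calls were 7 and 9. These are 20.5% and 14.3% of the list probes, beside 27.0% and 18.4% of all tested probes. The siRNA1 count was 15 without control replicate 4, beside 21.9% of all tested probes. Median log2 differences of the lists together were -0.052 and -0.032. No probe of the ryanodine receptor genes *Ryr1* and *Ryr2* was tested, and of the junctional reticulum partners 4 of 10 probes were, with 1 lower with siRNA1 and 0 called with siRNA2, where 1 had an unadjusted p under 0.05 in limma's fit. Of 4 tested probes of other pumps and their regulators, 1 was higher with siRNA1 and 0 were called with siRNA2, with 0 at an unadjusted p under 0.05.

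Among genes that make or remove IP3, *Itpka* and *Inpp5a* were named. *Itpka*, a kinase that phosphorylates IP3, rose with both siRNAs, with 96.0% to 106% on control arrays, 188% to 240.3% with siRNA1, and 174% to 213% with siRNA2. These are log2 differences of 1.09 (SE, 0.099; adjusted p = 2.3e-05) and 0.90 (SE, 0.11; adjusted p = 0.000214), and the siRNAs differed by 0.19 (adjusted p = 0.236). *Inpp5a*, a phosphatase that inactivates IP3, fell with siRNA2 to 49.5%, 42.9%, and 45.4%, by 1.13 on the log2 scale (adjusted p = 6e-05), and stood at 93.6% to 121% with siRNA1 (0.092, adjusted p = 0.552). The siRNAs differed by 1.22 (adjusted p = 2.5e-05). In this list of 14 tested probes, 1 was called with siRNA1 and 2 with siRNA2, beside 27.0% and 18.4% of all tested probes.

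*Ahcyl1*, known as IRBIT, binds IP3 receptors and restrains them. Its A_51_P206251 probe fell to 59.5% to 81.4% with siRNA1 and 38.1% to 51.0% with siRNA2, by 0.57 (adjusted p = 0.0116) and 1.25 (adjusted p = 0.000227) on the log2 scale. The A_51_P296328 probe fell by 0.85 with siRNA2 (adjusted p = 0.00341) and had a difference of -0.20 with siRNA1 (adjusted p = 0.348). Both probes were lower with siRNA2 than with siRNA1 (adjusted p = 0.00692 and 0.0120). Of the 9 tested probes of release channel partners, 2 were called with siRNA1 and 2 with siRNA2 (22.2% each), beside 27.0% and 18.4% of all tested probes.

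In the list of store-operated entry, which leaves out the members, 1 of 8 tested probes was called as higher and 4 as lower in siRNA1-transfected MLTCs, against 0 and 2 in siRNA2-transfected MLTCs. Of all tested probes, 11.8% were higher and 15.2% lower with siRNA1, and 7.70% and 10.7% with siRNA2. *Orai3*, a relative of *Orai1*, fell with both siRNAs, to 67.0% to 74.8% with siRNA1 and 56.3% to 66.7% with siRNA2, by 0.50 (adjusted p = 0.00170) and 0.72 (adjusted p = 0.000389) on the log2 scale. *Cracr2b*, which encodes a regulator of Orai channels, fell by 0.79 with siRNA1 (adjusted p = 0.000154), and had a difference of -0.29 with siRNA2 (adjusted p = 0.0788). *Septin4*, a septin, fell by 1.12 with siRNA1 (adjusted p = 0.000927) and had a difference of -0.30 with siRNA2 (adjusted p = 0.349). Its probe was dim, with signals of 8.24 to 22.5, and was well above background on 3 of 4 siRNA1 arrays.

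The luminal proteins and the sensors of cytosolic calcium completed the pathway. Among 18 tested probes of luminal calcium-binding proteins, 0 were called by limma with siRNA1, where 4 had an unadjusted p under 0.05, and 4 were higher and 2 lower with siRNA2. Of all tested probes, 27.0% were called with siRNA1, and 7.70% were higher and 10.7% lower with siRNA2. *Canx*, the lectin chaperone calnexin, was at 44.5% to 51.0% with siRNA2 on A_52_P337679, a fall by 1.08 (adjusted p = 4.4e-05), and at 98.8% to 108% with siRNA1. It fell by 0.54 on A_52_P496596 (adjusted p = 0.00450), and its A_51_P242143 probe was not called (-0.40, adjusted p = 0.311). *Rcn3*, a reticulocalbin, rose with siRNA2 on both probes (0.59 and 0.55, adjusted p = 0.0291 and 0.0302). The A_51_P398683 probe lost the call without control replicate 1 or 2 or siRNA2 replicate 2 or 3 (0.45 to 0.66, adjusted p = 0.0502 to 0.115). Of the 28 probes of cytosolic sensors, siRNA1 gave 6 calls as higher and 2 as lower, beside 11.8% and 15.2% of all tested probes. With siRNA2 there was 1 of each, beside 7.70% and 10.7%. Of the kinase subunit genes, *Camk2b* rose by 0.93 with siRNA1 (adjusted p = 0.000158) and had a difference of 0.26 with siRNA2 (adjusted p = 0.176). *Camk2g*, which passed but lay beyond the limit of 3 genes per list, fell by 0.59 with siRNA1 (adjusted p = 0.000244). Its siRNA2 difference was 0.19 (adjusted p = 0.148). The *Camk2a* probe was dim, with signals of 8.12 to 21.0, and was not well above background on siRNA1 replicate 3. It fell by 1.18 with siRNA1 (adjusted p = 6.7e-05) and by 0.60 with siRNA2 (adjusted p = 0.0111). Under capped normexp these differences were -0.37 (adjusted p = 0.00787) and -0.19 (adjusted p = 0.238), and the siRNA2 call was also lost under eBayes with trend (adjusted p = 0.0532). *Calm3*, 1 of the genes of calmodulin, was higher by 0.81 and 0.39 on A_51_P384499 only (adjusted p = 3.7e-05 and 0.00881). Its other probes were not called, at -0.17 and -0.015 with siRNA1 and 0.22 and 0.21 with siRNA2. The differences between these probes were not tested.

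*Vdac2*, a channel of the outer mitochondrial membrane, fell with siRNA1 to 52.8% to 58.1% of control, by 0.86 on the log2 scale (adjusted p = 1.7e-05), and stood at 116% to 121% with siRNA2 (0.24, adjusted p = 0.0620). In its list of mitochondrial and plasma membrane calcium transport, 2 of 13 tested probes were lower with siRNA1 and 1 with siRNA2, beside 15.2% and 10.7% of all tested probes. Of 14 tested probes of hydroxylases that, like the *Asph* enzyme, depend on 2-oxoglutarate, 1 was higher and 2 lower with siRNA1, and 1 was higher with siRNA2. The shares of all tested probes were 11.8% and 15.2% with siRNA1, and 7.70% as higher with siRNA2. *P3h3*, a collagen prolyl hydroxylase, fell by 0.70 with siRNA1 (adjusted p = 0.00276) and had a difference of 0.23 with siRNA2 (adjusted p = 0.334). *Hif1an*, the asparaginyl hydroxylase of HIF1A, had 3 probes, whose differences were not tested against each other. A_51_P521171 rose with siRNA2 to 154% to 162% (0.67, adjusted p = 0.000280), A_51_P304076 fell with siRNA1 (by 0.60, adjusted p = 0.0253), and A_52_P49233 was not called (-0.25 with siRNA1, SE, 0.19; -0.027 with siRNA2, SE, 0.21). The A_51_P304076 call was lost without control replicate 1 or 4 or siRNA1 replicate 1 or 3 (-0.58 to -0.54, adjusted p = 0.0577 to 0.0749).

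**Figure D5:**
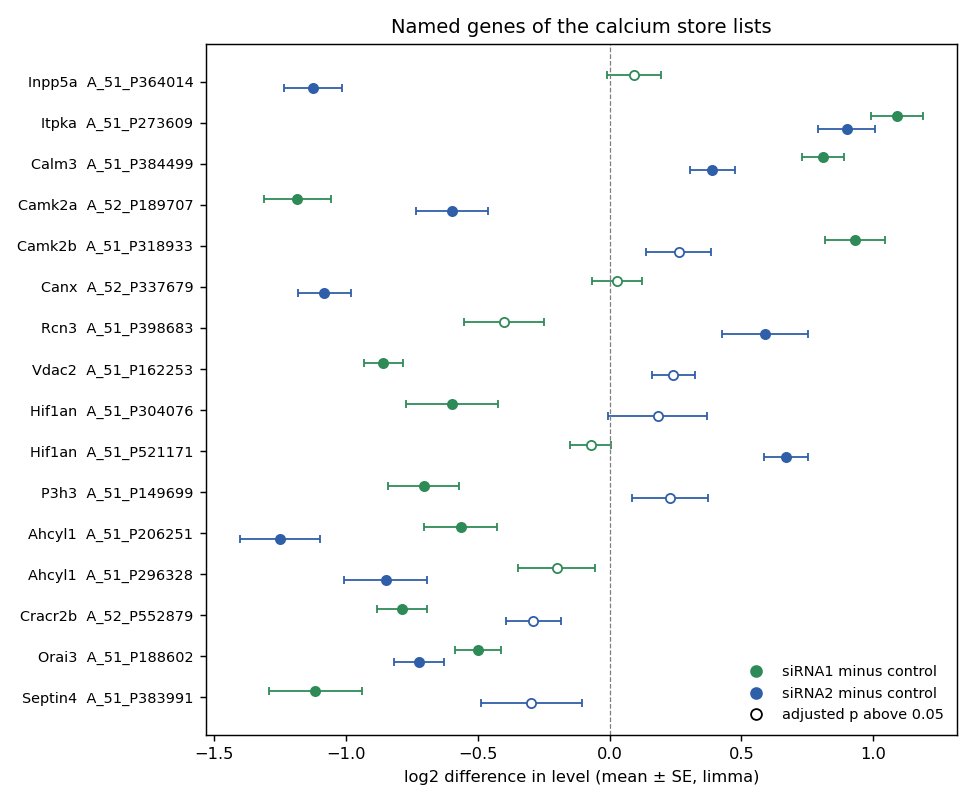
Log2 difference from control, with SE, of 16 probes of 14 genes of the calcium store lists, at most 3 genes per list. Each probe passed an adjusted p of 0.05 with at least a 1.5-fold change with either siRNA. Filled points passed the adjusted p. *Itpka* lies at 1.09 and 0.90, *Orai3* at -0.50 and -0.72, and *Inpp5a* at 0.092 and -1.13.

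Over the 11 arrays, the named probes outside the members whose log2 level was most like that of *Asph* A_52_P432289 were those of *Usp15* (Pearson's r = 0.992), *Fermt2* (0.989), *Pgm3* (0.984), *Gle1* (0.984), and *Gapvd1* (0.984). Their log2 differences from control were 0.68 to 1.11 with siRNA1 and 0.70 to 1.21 with siRNA2. The r of the other *Asph* probes was 0.816 and 0.831, that of the *Itpr1* probes 0.896 and 0.817, and that of the *Atp2a2* probes 0.658 and 0.644. All these values rest on the same 11 arrays in 3 groups and describe them only.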

How the data were processed

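For each of 11 one-color arrays, 300 ng of total RNA was labeled. Per the file headers, the deposited signal intensity of each spot was made by the authors with Feature Extraction (version 9.5.1.1), which subtracted background and left the arrays unnormalized. The authors' table of group averages and selected probes was not used. On the log2 scale, each array was centered on its 75th percentile over spots that are not control spots, outlier-marked spots were left out, and spots of a probe were averaged. Accessions were matched to RefSeq symbols (24375 of 41174 probes), and probes of a gene were kept apart. Names and promoters come from GRCm38.p6, which is newer than the build of the array's own annotation. The number of arrays limits the precision.

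limma (version 3.58.1, R version 4.3.3) fitted 11 arrays in 3 groups over the 24250 probes well above background throughout at least 1 group. Calls needed an adjusted p of 0.05 or less (Benjamini-Hochberg, over all 24250). Exact permutation tests were two-sided, with 0.0286 as their smallest p. Of the calcium lists, genes were named that passed with at least a 1.5-fold change with either siRNA, at most 3 per list (14 of 17). The members and lists were chosen with earlier results of these data known. Replicate numbers were not taken as pairs in the main fit, which holds no slide or replicate term. Deviations of same-numbered arrays correlated at -0.18 to 0.53 (median r, 0.30), and those of other-numbered arrays at -0.46 to 0.42 (median r, -0.10). The median r was 0.30 for arrays on the same slide and -0.12 for those on other slides. On simulated data, 30% of probes changed by 0.5 and 78% of those changed by 1 (log2) were called with siRNA1, and 26% and 74% with siRNA2. Only 50 probes of each size among 24250 were changed there, with noise independent between arrays. In the data, 27.0% and 18.4% of probes were called, so the simulated shares do not measure recovery in the data. The alternatives were normexp background correction with and without a cap on local backgrounds, quantile normalization, median scaling, other filters, outlier-marked spots kept, slide and replicate blocks, separate fits, the methods' t-test, eBayes with trend, a fold change of 2, and leaving out each array.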

Additional observations from a re-analysis of the deposited data

Results flagged for a closer look

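*Itpr2* probe A_51_P500051 had 1 control array, replicate 1, at 80.0% of the control mean, far from the other 3 control arrays. Of 38 groups checked this way it was the only one, and chance flags about 1 in 20 groups.

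The effects of siRNA1 and siRNA2 differed, in limma's test of the difference itself, for 6 of the 16 probes of the members other than *Asph*. Of all tested probes, 23.5% were called in this test. The count of member probes was 2 to 6 with 1 array left out, beside 17.5% to 23.3% of all tested probes. The log2 difference of siRNA1 minus siRNA2 was -0.72 for *Itpr3*, 0.40 for *Atp2a2* A_51_P451075, and 0.55, 0.54, 0.67, and 0.76 for *Itpr2* A_51_P500051, A_51_P500056, A_51_P480408, and A_52_P443988.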

How the results depend on the processing

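Normexp background correction on the local backgrounds as deposited ended nearly all calls. Of the members other than *Asph*, 0 probes were called in any comparison, against 8 (siRNA1), 1 (siRNA2), and 6 (siRNA1 against siRNA2), and of the calcium lists 1, 0, and 0 probes, against 23, 16, and 32. Over all 24250 probes the calls fell likewise, from 27.0%, 18.4%, and 23.5% to 1.57%, 0.507%, and 0.334%. With local backgrounds capped at the 99th percentile, 6, 1, and 4 member probes were called, beside 31%, 15.6%, and 22.7% of all tested probes. Uncapped normexp moved the median of all probes by 0.22 and 0.17 and turned the sign of *Camk2a* (0.71 and 0.48 with siRNA1 and siRNA2), *Mamld1* (0.65 and 0.44), *Cracr2b* (0.24), *Hif1an* A_51_P304076 (0.43), *P3h3* (0.49), and *Septin4* (0.67) with siRNA1, of *Stim2* A_51_P516526 (-0.045) with siRNA1, of *Atp2b1* A_51_P230799 (0.38) with siRNA2, and, between the siRNAs, of *Itpr1* A_51_P269663 (-0.099) and *Stim2* A_51_P260008 (0.21). The cause was not tested.

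A fold change of 2 left 1, 0, and 0 member probes and 3, 3, and 4 list probes, beside 2.99%, 2.25%, and 3.36% of all tested probes. With siRNA2, the member count became 0 under median scaling, beside 13.4% of all tested probes, and under the adjusted t-test of the methods, beside 11.8%. It was 5 under the unadjusted t-test, beside 27.6%, and 2 with a slide block, beside 25.5%. Between the siRNAs it was 3 without a filter on dim probes, beside 10.5%, and 2 with the adjusted t-test, beside 16.6%. Of 112 list probes, 39 and 28 were called with a slide block, beside 35.8% and 25.5% of all probes, and 33 with siRNA2 under the unadjusted t-test, beside 27.6%. Leaving out 1 array gave 2 to 6 member probes between the siRNAs, beside 17.5% to 23.3% of all tested probes. It gave 0 to 1 with siRNA2, beside 12.3% to 18.2%, and 15 to 23 list probes with siRNA1, beside 20.5% to 27.5%.

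The main fit did not take the replicate numbers as pairs. A replicate block gave 4 of 16 member probes with siRNA2, beside 24.1% of all tested probes. It brought *Itpr3* past the threshold (-0.26, adjusted p = 0.0465, and 0.53, adjusted p = 0.00516) and *Stim1* with siRNA2 (0.44). It turned the sign of *Itpr2* A_51_P500051 (0.045) and A_51_P500056 (0.037) with siRNA2 and, between the siRNAs, of *Itpr1* A_51_P269663 (-0.011) and *Atp2b1* A_52_P348986 (0.047).

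The other values that turned in sign were small and not called. Capped normexp gave -0.031 for *Atp2b1* A_51_P230799 and -0.11 for *Stim2* A_51_P260008 with siRNA1, and 0.018 for *Atp2b1* A_52_P348986 and -0.0076, 0.021, 0.014, and -0.011 for *Itpr2* A_51_P480408, A_51_P500051, A_51_P500056, and A_52_P443988 with siRNA2. Quantile normalization gave 0.012 for *Atp2b1* A_52_P348986 and 0.048 and 0.00053 for *Itpr2* A_51_P500051 and A_51_P500056 with siRNA2. Median scaling gave 0.024 with siRNA1 and 0.027 between the siRNAs for *Atp2b1* A_52_P348986. A slide block gave 0.011 for that probe and -0.022 for *Orai1* with siRNA2, and -0.063 for *Stim2* A_51_P260008 with siRNA1.

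Leaving out 1 array at a time gave, with siRNA2, -0.17 to 0.065 for *Atp2b1* A_51_P230799, -0.12 to 0.12 for A_52_P348986, -0.063 to 0.42, -0.12 to 0.058, and -0.10 to 0.047 for *Itpr2* A_51_P480408, A_51_P500051, and A_51_P500056, and -0.088 to 0.11 for *Orai1*. With siRNA1 it gave -0.11 to 0.10 for *Atp2b1* A_52_P348986 and -0.024 to 0.45 for *Stim2* A_51_P260008. Between the siRNAs it gave -0.065 to 0.30 for *Asph* A_52_P625171, -0.11 to 0.10 for *Atp2b1* A_52_P348986, -0.025 to 0.048 for *Itpr1* A_51_P269663, -0.0064 to 0.19 for *Orai1*, and -0.49 to 0.053 for *Stim2* A_51_P260008. No difference of *Asph* from control turned in sign under any alternative run. This adds no support, as *Asph* was chosen for its rise on these same arrays. Of the member probes, the dim ones of *Itpr2* and *Stim2*, with signals under 50, are the least precise. The *Mamld1* probe also had signals under 50.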
